A study of Mus musculus with 6 samples.

Results

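The genes described here are the collagen chains and the proteoglycans of the corneal stroma, with *Sparc* added, as they were measured in the corneal epithelial layer of mice with and without *Rela*. The members were every gene of the deposited table named Col, a number, a and a chain number, apart from *Col17a1* and *Col7a1*, together with *Dcn*, *Lum*, *Kera*, *Bgn*, *Fmod*, *Ogn*, *Prelp* and *Sparc*. This gave 47 of the 17554 genes, of which 39 were collagen chains. *Col4a3bp*, which encodes a lipid transfer protein and no collagen, was left out. Bulk RNA-seq was performed on 3 control samples, labelled WT, and 3 samples labelled Rela-/-, which came from *Krt14-Cre; Rela f/f* mice, all C57BL/6 and 2 months old. *Krt14-Cre* removes *Rela*, the gene of an NF-κB subunit, in cells that use the keratin 14 promoter, so keratocytes of the stroma were not its target. Whether the control mice carried Cre or floxed *Rela* is not given in the sources used here. *Rela* itself had an FPKM (reads scaled for transcript length and library size) of 36.5, 34.7 and 33.4 in controls and 4.93, 5.53 and 5.72 in mutants.

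The cornea is a stratified epithelium on a basement membrane above a thick collagenous stroma. Keratocytes, the flat fibroblast-like cells of the stroma, make narrow fibrils of type I and type V collagen. They also make small leucine-rich proteoglycans, core proteins with keratan sulfate or dermatan sulfate chains that bind the fibrils and keep their width and spacing even, on which transparency depends. Epithelial cells make mainly basement membrane collagens and collagens of the hemidesmosome and anchoring fibril. Sparc is a secreted glycoprotein that binds collagen and calcium and is known from tissue repair. The first question was therefore which members could be detected in epithelial RNA at all.

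Most members were near the limit of detection in both genotypes, and *Sparc* was the exception that stood out in amount and in change. Total expected counts (estimated reads per gene) lay between 19492942 and 19733834 per sample, at which 3 counts equal 0.152 to 0.154 CPM, the count scaled to library size. With at least 3 counts in at least 1 sample taken as detected, 38 of the 47 members were detected, 32 of them collagens. The 9 others, *Kera*, *Ogn*, *Col9a1*, *Col6a6*, *Col22a1*, *Col24a1*, *Col25a1*, *Col27a1* and *Col28a1*, had at most 2 counts in any sample and were not detectable at this depth. In 19 members each of the 6 samples had fewer than 10 counts. All members together held 0.00871% to 0.0109% of the expected counts of a control sample and 0.0142% to 0.0151% of a mutant sample. *Sparc* made up 15.4% to 17.3% of these member counts in controls and 41.6% to 49.7% in mutants. Without *Sparc* the summed FPKM of the members was 13.2 to 15.3 in control and 13.2 to 15.8 in mutant samples, so the ranges of the genotypes lay on each other. Averaged over all 6 samples, 5 members had an FPKM of at least 1, namely *Sparc*, *Col4a5*, *Col26a1*, *Col20a1* and *Col12a1*. For scale, *Col17a1*, the hemidesmosomal collagen that is no member, had an FPKM of 591 to 698 in control and 657 to 901 in mutant samples, and *Krt12*, the corneal keratin, one of 17005 to 21194 over the 6 samples.

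**Figure D1:**
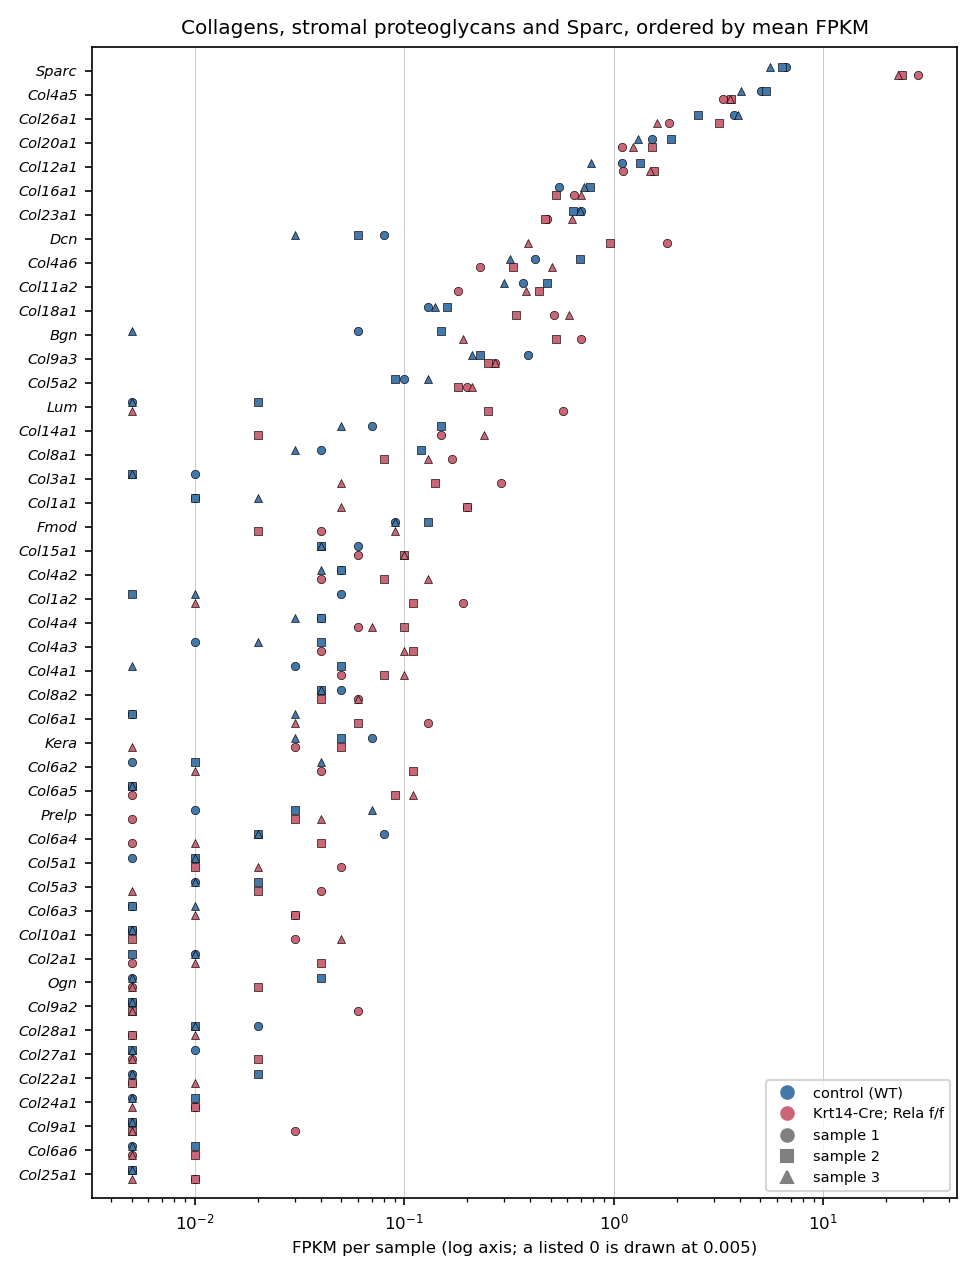
FPKM of the 47 members in each of the 6 samples on a log axis, ordered by their mean, with control samples in blue, mutant samples in red and a symbol per sample number; a listed 0 is drawn at 0.005. *Sparc* lies at 5.59 to 6.67 in control and 22.7 to 28.3 in mutant samples, and most other members lie below an FPKM of 1.

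The genotypes were compared with edgeR's quasi-likelihood test on all genes that passed its filter on low counts, with Benjamini-Hochberg adjustment over 12667 genes. Of the members, 16 passed the filter and 31 did not, and *Dcn* and *Col4a4* passed through the mutant samples alone. At an adjusted p under 0.05, 3 members were higher in the mutant samples, *Sparc*, *Dcn* and *Col18a1*, where 7.82% of all tested genes were higher. *Col4a5* was lower, where 5.42% of all tested genes were lower. At the study's own thresholds, a fold change of 2 or more with an adjusted p no higher than 0.001, *Sparc* was the 1 member called higher (1.31% of all tested genes), and 0 members were called lower by edgeR or DESeq2 (0.0553% of all tested genes by edgeR). At an unadjusted p under 0.05, 5 members were higher and 3 lower in edgeR. The share of all tested genes at this threshold was not computed, so nothing is read from these counts. As a description, the median log2 fold change was 0.18 over the 16 members that passed the filter and -0.003 over all genes tested. By counts alone, each mutant sample was above each control sample in 9 of the 47 members (14.2% of all genes in the table) and below in 2 (12.0% of all genes in the table). In bulk samples, more cells of a type and more RNA per cell cannot be told apart.

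**Figure D2:**
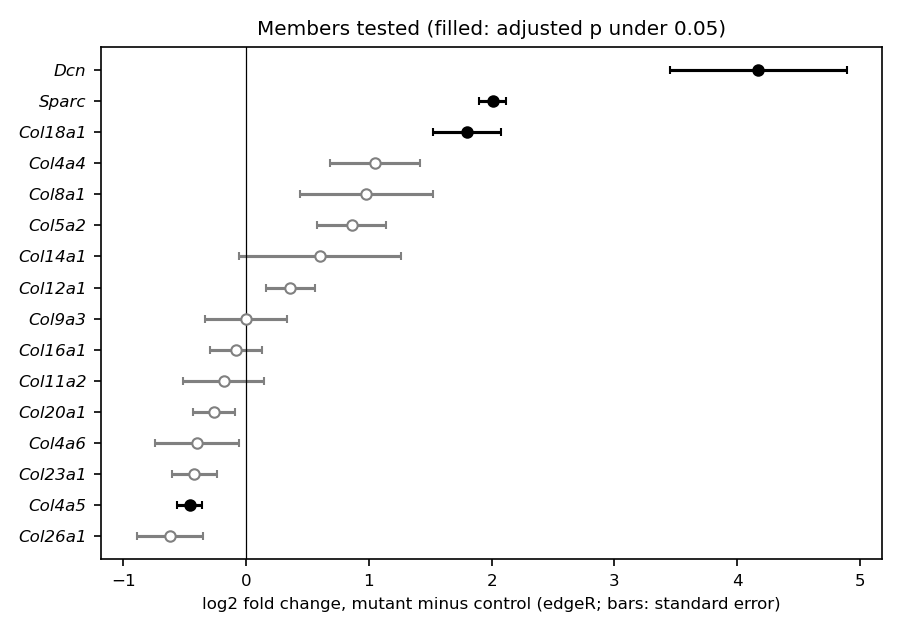
Log2 fold change, mutant minus control, of the 16 members tested by edgeR, with bars for the standard error and filled points for an adjusted p under 0.05. *Dcn*, *Sparc* and *Col18a1* are filled on the right of 0 and *Col4a5* is filled on the left, and the other 12 members are open.

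*Sparc* (chromosome 11, 55394500 to 55423183, minus strand, in the GENCODE gene models of GRCm38 used for all positions of genes) showed the firmest rise. Its FPKM was 6.67, 6.33 and 5.59 in controls and 28.3, 23.7 and 22.7 in mutants. The lowest mutant sample was thus well above the highest control sample, and the samples of a genotype lay close together. The mean FPKM was 6.20 ± 0.552 (SD, n = 3) in control and 24.9 ± 2.96 (SD, n = 3) in mutant samples, a ratio of 4.02. These values rest on 289 to 347 counts per control sample and 1188 to 1460 per mutant sample. The log2 fold change was 2.01 (standard error, SE, 0.11, edgeR adjusted p = 1.1e-05). An exact two-sided permutation test of 3 against 3 samples gave p = 0.1, the smallest it allows, for *Sparc* and likewise for *Dcn*, *Col18a1* and *Col4a5*. The rise of *Sparc* remained past the study's thresholds in each of the 13 alternatives tried, with log2 fold changes from 1.85 to 2.08.

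*Col18a1* (chromosome 10, 77052178 to 77166548, minus strand) encodes type XVIII collagen, a heparan sulfate proteoglycan of epithelial and vascular basement membranes, from whose C-terminal end the fragment endostatin is released. Its FPKM was 0.13, 0.16 and 0.14 in controls and 0.52, 0.34 and 0.61 in mutants. All mutant samples were above all control samples, with 13 to 16 counts against 36 to 61. The mean FPKM rose from 0.143 ± 0.0153 to 0.490 ± 0.137 (SD, n = 3 each), and the log2 fold change was 1.80 (SE 0.28, edgeR adjusted p = 0.0030). The adjusted p stayed under 0.05 in all 13 alternatives and was at most 0.024, with limma on log2(FPKM + 1), where the difference was 0.38. *Col15a1*, which encodes the related type XV collagen, had 4 to 6 counts in control and 6 to 10 in mutant samples and was not tested.

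The sequences just before the RefSeq transcription starts of *Sparc* and *Col18a1* are shown because these are the collagen-binding and collagen genes that rose and have a RefSeq promoter entry. They are RefSeq sequences of GRCm38.p6, 250 bases each, read 5′ to 3′ towards the start, with GC boxes (GGGCGG on either strand) in capitals.
*Sparc*, chr11:55420081-55420330, minus strand: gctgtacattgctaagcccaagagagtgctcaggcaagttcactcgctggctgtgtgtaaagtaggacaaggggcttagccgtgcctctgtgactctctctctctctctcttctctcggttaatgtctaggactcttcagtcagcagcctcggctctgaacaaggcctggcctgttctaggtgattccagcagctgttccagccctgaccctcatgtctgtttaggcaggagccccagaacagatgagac
*Col18a1*, upstream start, chr10:77166531-77166780, minus strand: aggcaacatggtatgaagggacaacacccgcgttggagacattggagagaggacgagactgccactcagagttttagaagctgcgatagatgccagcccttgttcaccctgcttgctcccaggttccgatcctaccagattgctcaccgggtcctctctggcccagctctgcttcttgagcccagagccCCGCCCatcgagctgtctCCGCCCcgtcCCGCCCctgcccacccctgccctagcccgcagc
*Col18a1*, downstream start, chr10:77113706-77113955, minus strand: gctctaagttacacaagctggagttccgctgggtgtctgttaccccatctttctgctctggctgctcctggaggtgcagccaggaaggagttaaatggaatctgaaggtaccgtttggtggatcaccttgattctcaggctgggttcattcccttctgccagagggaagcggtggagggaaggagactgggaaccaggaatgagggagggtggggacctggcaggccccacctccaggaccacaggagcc
The gene models differ here: the GENCODE model of *Sparc* begins at 55423183, upstream of the RefSeq start at 55420080, so the *Sparc* window lies inside the GENCODE gene, as does the downstream window of *Col18a1*. The upstream start of *Col18a1* had 3 GC boxes, whereas the *Sparc* window and the downstream start of *Col18a1* had none. A GC box was in 32.7% of all 32851 promoter windows of this length. Neither the kappa B consensus (in 7.25% of all windows), AP-1 sites written TGANTCA (6.75%) nor a TATA box written TATAAA (12.4%) was found on either strand of these 3 windows. Over the 36 members with a RefSeq promoter, which had 39 windows, 21 windows held a GC box, 6 the kappa B consensus, 1 an AP-1 site and 4 a TATA box. The windows with the kappa B consensus were those of *Col27a1*, *Col4a2*, *Col6a2*, *Col6a4*, *Col9a1* and *Col9a2*, each of which was too low to be tested. These matches describe letters in the windows and no binding was measured.

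Among the small leucine-rich proteoglycans, decorin was the one member that reached the test, and it did so through the mutant samples alone. *Dcn* (chromosome 10, 97479609 to 97518143, plus strand) encodes decorin, which carries a dermatan sulfate chain and binds collagen fibrils. It had 3, 2 and 1 counts in controls and 66, 34 and 14 in mutants. In FPKM these were 0.08, 0.06 and 0.03 against 1.80, 0.96 and 0.39. The genotypes did not overlap, and the mutant samples differed among themselves by far more than they did for *Sparc*. The summed counts were 19.0 times as high in the mutant samples (95% exact interval 8.45 to 52.8, counting error only). The log2 fold change was 4.17 (SE 0.72, edgeR adjusted p = 0.0051). Without the mutant sample 1 the log2 fold change was 3.50 (adjusted p = 0.0056 from edgeR), and with limma on log2(FPKM + 1), a scale that shrinks changes of low genes, the difference was 0.90 (adjusted p = 0.033). *Dcn* was in these fits only because its mutant values were high, so these p-values add no support to its counts.

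*Bgn* and *Lum* showed counts of the same kind but were too low for the filter. *Bgn* encodes biglycan, the closest relative of decorin, and had 3.0, 7.0 and 0.0 counts in control and 33.1, 25.3 and 9.1 in mutant samples. *Lum* encodes lumican, a main keratan sulfate proteoglycan of the stroma, and had 0, 1 and 0 counts against 23, 10 and 0. *Bgn* did not overlap between the genotypes, while the mutant sample 3 had no more *Lum* than the control samples. The ratio of the summed counts was 6.69 for *Bgn* (95% exact interval 3.42 to 14.6) and 32.9 for *Lum* (5.51 to 1340). These intervals hold counting error only and leave out the spread between mice. An exact two-sided permutation test of FPKM gave p = 0.4 for *Lum* and p = 0.1, the smallest it allows, for *Bgn*.

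*Kera* encodes keratocan, the most keratocyte-restricted core protein of the family, and its few counts were not higher in the mutant samples. It had 2, 2 and 1 counts in controls and 1, 2 and 0 in mutants. The ratio of its summed counts was 0.599 (95% exact interval 0.093 to 3.08, counting error only), an interval that holds ratios above and below 1. The spread between mice is not part of this interval, and *Kera* did not pass the filter. *Fmod*, the gene of fibromodulin, a fibril-binding keratan sulfate proteoglycan, had 5, 7 and 5 counts against 2, 1 and 5. *Prelp*, of which 9.68% of the exon bases overlap another gene, had 1, 2 and 5 counts against 0, 2 and 3. *Ogn*, the gene of osteoglycin, had 0, 2 and 0 counts against 0, 1 and 0. None of these 4 genes passed the filter, and their counts overlapped between the genotypes. In edgeR with no filter the adjusted p was 0.76 for *Kera*, 0.40 for *Fmod*, 0.74 for *Prelp* and 0.82 for *Ogn*.

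*Dcn*, *Lum* and *Kera* lie in a row on the plus strand of chromosome 10, between 97479609 and 97613692. The gap from *Dcn* to *Lum* is 46984 bases and that from *Lum* to *Kera* 34175 bases. Over this stretch the summed counts went from 6 to 114 for *Dcn*, from 1 to 33 for *Lum* and from 5 to 3 for *Kera*, from control to mutant samples.

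The fibrillar collagens of the stroma were at trace levels, and their summed counts were higher in the mutant samples. *Col1a1* and *Col1a2*, the chains of type I collagen, and *Col3a1*, the chain of type III collagen of loose and healing connective tissue, were all too low for the filter. *Col1a1* had 1, 1 and 2 counts in control and 23, 23 and 6 in mutant samples. *Col3a1* had 1, 0 and 0 counts against 32, 15 and 6. *Col1a2* had 5, 0 and 1 counts against 20, 11 and 1. The genotypes did not overlap in *Col1a1* and *Col3a1* and overlapped in *Col1a2*, where the mutant sample 3 lay within the control range. The ratios of the summed counts were 13.0 (95% exact interval 4.78 to 49.4) for *Col1a1*, 52.9 (9.09 to 2130) for *Col3a1* and 5.32 (2.2 to 15.6) for *Col1a2*. These intervals too leave out the spread between mice. The exact permutation test of FPKM gave p = 0.3 for *Col1a2* and p = 0.1 for *Col1a1* and *Col3a1*.

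With no filter on low counts, edgeR gave an adjusted p under 0.05 for *Col3a1* (0.0044), *Col1a1* (0.0061), *Bgn* (0.029) and *Col6a5* (0.038) beside the 3 members named before, where 5.86% of all 17514 genes in that fit were higher. *Lum* (0.055) and *Col1a2* (0.17) were not past it. The set of these genes that was called differed when single samples were left out. Without the mutant sample 3 the filter let through *Col1a1*, *Col1a2*, *Col3a1* and *Bgn*. All 4 had an adjusted p under 0.05 in edgeR, the largest being 0.047 for *Col1a2*. They passed the filter through the remaining mutant samples alone, and the sample left out was the lowest mutant sample in each. These calls therefore add no support. Without the mutant sample 1, *Dcn* was the only one of *Dcn*, *Bgn*, *Lum*, *Col1a1*, *Col1a2* and *Col3a1* that passed the filter. In these 6 genes, which were chosen after their values were seen, the mutant sample 3 was the lowest mutant sample each time and the mutant sample 1 the highest or level with the highest. Their summed counts were 13.0, 11.0 and 4.0 in controls and 197, 118 and 36.1 in mutants.

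**Figure D3:**
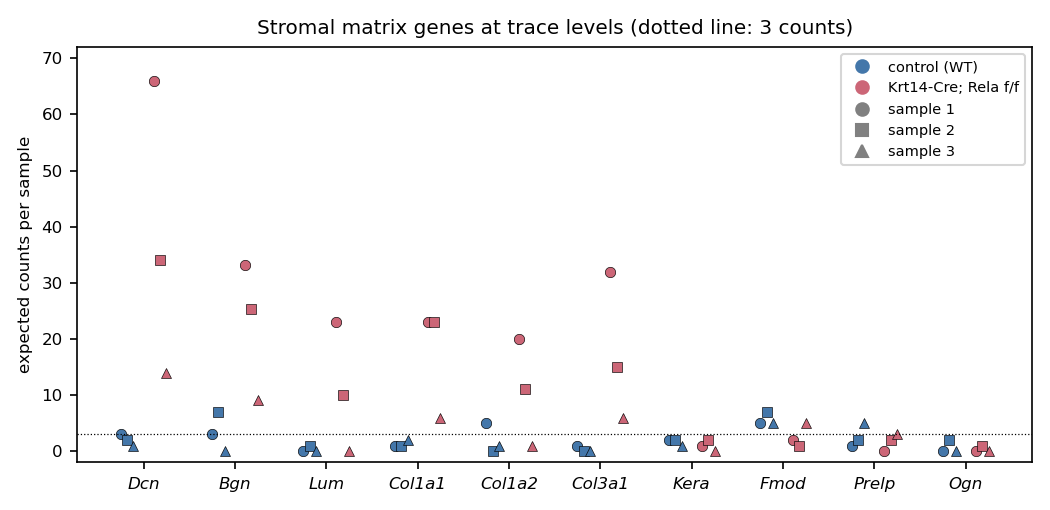
Expected counts per sample of 10 stromal matrix genes, control samples in blue and mutant samples in red, with a symbol per sample number and a dotted line at 3 counts. *Dcn* reaches 66 counts and falls to 14 within the mutant samples, whereas *Kera* has at most 2 counts in any sample.

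Markers of other cell types moved with these genes in part. Of 16 fibroblast markers, 8 had fewer than 10 counts in every sample, and *Twist1*, *Pdgfrb* and *Cd34* had at most 3. *Vim*, the gene of vimentin, had 1, 0 and 2 counts in control and 19, 9 and 9 in mutant samples. Of the 4 fibroblast markers tested, *Fbln1* was higher (log2 fold change 1.17), *Pdgfra* was lower (-0.78) and *Thy1* and *Pcolce* did not pass an adjusted p of 0.05 in edgeR. The summed FPKM of the list was 44.1 to 46.4 in control and 63.8 to 74.3 in mutant samples, most of it *Fbln1* and *Pcolce*. Among 8 leukocyte markers, *Lyz2* had 0.0, 0.0 and 1.0 counts against 23.7, 13.0 and 3.8. Its mutant samples were thus in the same order as those of *Dcn*. So were those of *Cd68* and *Itgam*, while those of *Ptprc*, *Adgre1*, *Csf1r*, *Cd3e* and *Cd74* were not. *Krt14*, an epithelial gene, had 70380.7, 49602.5 and 46732.1 counts in mutants, also in this order. How many of all genes had this order was not counted, so nothing is read from it. The 3 leukocyte markers tested by edgeR were not past an adjusted p of 0.05 (0 at an unadjusted p under 0.05), DESeq2 called 1 gene of the whole list, and the summed FPKM of the list was 85.3 to 92.0 against 80.1 to 125. The mutant samples 1, 2 and 3 lay at 24.1, -9.53 and -20.6 on the second principal component of all tested genes, and the control samples between -1.25 and 5.25. Whether other cells in the samples took part in the higher counts of the stromal transcripts was not tested.

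The remaining marker lists checked the tissue. All 10 corneal epithelial markers were detected, with a summed FPKM of 49100 to 53200 in control and 45200 to 48700 in mutant samples. Of these, *Krt14* was higher in the mutant samples and *Aldh3a1*, *Krt15* and *Upk1b* were lower at an adjusted p under 0.05. The smooth muscle and myofibroblast list had 1 tested gene, *Acta2*, which was higher (log2 fold change 1.32, adjusted p = 0.011 from edgeR), with 14.1 to 22.4 counts against 40.3 to 56.3. Elsewhere in this list the summed counts went from 9.7 in control to 28.9 in mutant samples for *Tagln* and from 4 to 12 for *Myh11*. They went from 4 to 0 for *Cnn1* and from 4 to 2 for *Rgs5*. In the conjunctival list *Krt13* was lower. The lists for vascular endothelium, corneal endothelium, melanocytes, Schwann cells and lens and retina had 0 genes past an adjusted p of 0.05 in edgeR and in DESeq2, and at an unadjusted p under 0.05 in edgeR they had *Tie1* lower and *Cryaa* higher. *Pecam1*, the gene of an endothelial adhesion molecule, was too low to be tested and had 2, 2 and 5 counts against 8, 7 and 14, so that its genotypes did not overlap (log2 fold change 1.63, adjusted p = 0.11 in edgeR with no filter). Elsewhere in the vascular list the summed counts went from 1 in control to 4 in mutant samples for *Cdh5*, from 0 to 3 for *Kdr* and from 3 to 5 for *Flt4*. They went from 4 to 1 for *Tek* and from 291 to 185 for *Tie1*. The summed FPKM of this list was 0.94 to 1.92 in control and 0.89 to 1.18 in mutant samples. The part of endothelial cells in the higher counts of the stromal transcripts was not tested. The lens marker *Cryaa* had 80 counts in the mutant sample 3 and 6 to 26 in the other 5 samples.

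Type IV collagen, the network of basement membranes, held the one member that fell. *Col4a5* (X chromosome, 141475385 to 141689234, plus strand) was the collagen member with the highest FPKM. Its FPKM was 5.07, 5.33 and 4.07 in controls and 3.33, 3.64 and 3.58 in mutants, with 516 to 675 counts against 418 to 462. The highest mutant sample was below the lowest control sample. The mean FPKM fell from 4.82 ± 0.665 to 3.52 ± 0.164 (SD, n = 3 each), a ratio of 0.730, and the log2 fold change was -0.46 (SE 0.10, edgeR adjusted p = 0.019). This call was lost when control sample 1 or 2 was left out (edgeR adjusted p = 0.068 and 0.084) and with limma on log2(FPKM + 1) or log2(FPKM + 0.1) (adjusted p = 0.064 and 0.060), while the direction was the same in all 13 alternatives. All 6 samples had 475 or more counts of each of 4 Y-linked genes, so that each held RNA of at least 1 male mouse.

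*Col4a6*, whose chain assembles with that of *Col4a5* in epithelial basement membranes, had an FPKM of 0.42, 0.69 and 0.32 in control and 0.23, 0.33 and 0.51 in mutant samples. The samples overlapped, and its log2 fold change of -0.40 (SE 0.34) had an adjusted p of 0.49 in edgeR. The GENCODE starts of *Col4a5* and *Col4a6* face away from each other across 1308 bases of the X chromosome. The 250 bases before a RefSeq transcript start of each gene are given because both genes start from this stretch, with GC boxes in capitals as before. The gene models differ here too. The *Col4a5* window runs past the first base of the gene in RefSeq (141475370) and in GENCODE (141475385), and its GC box lies beyond both. The *Col4a6* window lies just before the GENCODE start but overlaps the RefSeq gene, which begins at 141474095.
*Col4a5*, chrX:141475169-141475418, plus strand: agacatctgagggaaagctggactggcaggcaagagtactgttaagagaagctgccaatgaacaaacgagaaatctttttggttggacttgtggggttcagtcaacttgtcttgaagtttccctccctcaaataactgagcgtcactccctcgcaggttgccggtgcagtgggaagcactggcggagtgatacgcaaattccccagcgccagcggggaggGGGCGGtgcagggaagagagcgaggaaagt
*Col4a6*, chrX:141474077-141474326, minus strand: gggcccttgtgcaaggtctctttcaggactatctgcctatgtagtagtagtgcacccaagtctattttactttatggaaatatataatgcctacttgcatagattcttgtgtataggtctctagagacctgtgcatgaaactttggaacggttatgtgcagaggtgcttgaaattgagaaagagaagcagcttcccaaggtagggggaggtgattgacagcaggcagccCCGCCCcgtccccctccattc
Each window held 1 GC box and neither held the kappa B consensus, the AP-1 site or the TATA box.

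The other 4 type IV chains had higher summed counts in the mutant samples but were not called, and *Col4a1*, *Col4a2* and *Col4a3* were too low to be tested. *Col4a1* and *Col4a2*, which form the common type IV network of most basement membranes, had 0 to 6 and 5 to 6 counts in control and 6 to 13 and 5 to 17 in mutant samples. *Col4a3* had 2 to 7 counts against 6 to 19, and 5.65% of its exon bases overlap another gene. *Col4a4* had 7.8, 6.7 and 5.8 counts in control and 11.5, 18.8 and 13.6 in mutant samples. Its genotypes did not overlap, and its log2 fold change was 1.05 (SE 0.37, edgeR adjusted p = 0.095).

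The collagens with the next highest FPKM included chains of little-studied types and fibril-associated collagens, which sit on the surface of fibrils. None of them passed an adjusted p of 0.05. *Col26a1* had an FPKM of 3.74, 2.54 and 3.92 in control and 1.83, 3.20 and 1.61 in mutant samples (log2 fold change -0.62, SE 0.27, adjusted p = 0.16). The mutant sample 2 lay within the control range, and without it the log2 fold change was -0.99 (adjusted p = 0.026 from edgeR). *Col20a1* had an FPKM of 1.53, 1.87 and 1.31 against 1.09, 1.53 and 1.23, which overlapped. *Col12a1*, the gene of a fibril-associated collagen of dense connective tissue and cornea, had 1.09, 1.34 and 0.78 against 1.11, 1.55 and 1.49. Its log2 fold change of 0.36 (SE 0.20) did not pass the test (adjusted p = 0.27). *Col16a1* had an FPKM of 0.55, 0.77 and 0.72 against 0.65, 0.53 and 0.70, with overlap (log2 fold change -0.08, SE 0.21, adjusted p = 0.84).

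*Col23a1*, a collagen that spans the cell membrane, had an FPKM of 0.70, 0.64 and 0.69 in control and 0.48, 0.47 and 0.63 in mutant samples. The counts of all mutant samples were below those of all control samples, and the adjusted p was 0.15 (log2 fold change -0.42, SE 0.18). *Col11a2*, a minor fibrillar chain known from cartilage, had an FPKM of 0.37, 0.48 and 0.30 against 0.18, 0.44 and 0.38. *Col9a3*, a fibril-associated chain of which 6.07% of the exon bases overlap *Tcfl5*, had 0.39, 0.23 and 0.21 against 0.27, 0.25 and 0.27. Both overlapped between the genotypes.

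Type V collagen sets the width of stromal fibrils. *Col5a2* was its best measured chain, with an FPKM of 0.10, 0.09 and 0.13 in control and 0.20, 0.18 and 0.21 in mutant samples. Each mutant sample was above each control sample, with 12 to 17 against 23 to 28 counts, and the log2 fold change of 0.86 (SE 0.28) had an adjusted p of 0.073. *Col5a1* had 0.0, 2.4 and 1.6 counts against 7.8, 1.0 and 3.0. *Col5a3* had at most 5 counts in any sample. *Col14a1*, a fibril-associated collagen, and *Col8a1*, a chain of the hexagonal lattice of Descemet's membrane, had log2 fold changes of 0.60 and 0.98 and overlapped between the genotypes.

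The beaded filament collagens of type VI were all too low for the test. *Col6a1* had 0, 0 and 2 counts in control and 10, 5 and 2 in mutant samples, and *Col6a3* had 0, 0 and 1 against 6, 6 and 2. *Col6a5*, singled out after its values were seen, had 0 counts in all control samples and in the mutant sample 1, but 17 and 20 counts in the mutant samples 2 and 3. Its mutant samples were thus in another order than those of *Dcn*, and 3.42% of its 50-base windows also occur in transcripts of other genes. *Col6a2*, *Col6a4* and *Col6a6* had at most 8.6, 12 and 1 counts in any sample. Among the rest, *Col8a2* had 3 to 5 counts in each sample, and *Col2a1*, *Col10a1* and *Col9a2* had at most 4.

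Collagen chains are hydroxylated, folded and glycosylated in the endoplasmic reticulum and then trimmed and cross-linked outside the cell, and 34 genes of these steps were in the table. Most were measured well in the epithelium, where 26 could be tested, and 2 were higher (7.82% of all tested genes), 3 lower (5.42% of all tested genes) and 21 not past an adjusted p of 0.05. The share of higher genes was thus near that of all genes. Their median log2 fold change was 0.03, against -0.003 over all genes tested. *Plod2*, whose enzyme hydroxylates lysines of the collagen telopeptides for stable cross-links, had an FPKM of 0.20, 0.15 and 0.14 in control and 2.39, 1.42 and 0.97 in mutant samples. The mutant samples were all higher, and the log2 fold change was 3.25 (SE 0.38, edgeR adjusted p = 6.3e-04). *P4ha1*, which encodes a catalytic subunit of prolyl 4-hydroxylase, had 3.80, 2.93 and 2.76 against 7.35, 5.88 and 6.13 (log2 fold change 1.01, adjusted p = 9.3e-04). Both were past the study's thresholds as tested here, but not in all alternatives. The adjusted p of *P4ha1* was above 0.001 with upper-quartile scaling (0.0011), in limma (0.0035 and 0.0044) and without any 1 sample (0.0013 to 0.010). That of *Plod2* was above 0.001 in limma (0.0013 and 0.0055), without any 1 control sample (0.0035 to 0.0086) and without the mutant sample 2 (0.0020). In each of these alternatives both genes kept an adjusted p under 0.05.

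The 3 genes that fell were *P3h2*, a prolyl 3-hydroxylase that acts on basement membrane collagen, *Tll1*, a procollagen C-proteinase, and *Pcolce2*, an enhancer of that cleavage. *P3h2* had an FPKM of 32.3, 34.2 and 26.4 in control and 22.8, 22.8 and 25.3 in mutant samples (log2 fold change -0.39, adjusted p = 0.027). *Tll1* fell by 1.03 (adjusted p = 0.019) and *Pcolce2* by 0.78 (adjusted p = 0.026) on the log2 scale. All 3 falls lost their call without the control sample 2 and without the mutant sample 2, where the edgeR adjusted p was 0.061 to 0.11. Without the control sample 3, *Tll1* (0.067) and *Pcolce2* (0.069) lost it too, as did *Tll1* without the mutant sample 3 (0.055). *P3h2* also lost it without the control sample 1 (0.087), with the replicate block (0.055) and in limma (0.054 and 0.051). *Serpinh1*, the collagen chaperone, and *Lox*, the lysyl oxidase, are named outside the rule for their place in the pathway. The former had 206 to 277 counts with a log2 fold change of 0.02, and the latter had at most 2 counts in any sample.

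Of the genes that build glycosaminoglycan chains on the core proteins, 18 of 21 in the table were tested, and 3 were higher (7.82% of all tested genes), 0 lower (5.42% of all tested genes) and 15 not past an adjusted p of 0.05 in edgeR. Nothing particular to this list is read from these counts. At an unadjusted p under 0.05 in edgeR, 5 were higher and 1 was lower. DESeq2 had 4 higher and 0 lower at an adjusted p under 0.05. The share of all genes in these settings was not computed, so nothing is read from these counts either. The median log2 fold change was -0.03. *B3gnt7*, which extends keratan sulfate chains, had an FPKM of 1.84, 1.34 and 2.40 in control and 7.29, 5.58 and 4.38 in mutant samples, without overlap (log2 fold change 1.62, SE 0.24, adjusted p = 0.0023). *Dse* encodes the epimerase that turns chondroitin into dermatan sulfate as carried by decorin. It had 4, 1 and 0 counts against 38, 20 and 12, again without overlap. Its log2 fold change was 3.71 (SE 0.75, adjusted p = 0.011), and the gene passed the filter through the mutant samples alone. Its log2 fold change was 5.22 without the control sample 1 and 3.16 without the mutant sample 1, and 0.39 with limma on log2(FPKM + 1). *Xylt1*, which places the first sugar on the core protein, had 7, 9 and 5 counts against 30, 19 and 20 (log2 fold change 1.70, adjusted p = 0.015), and it too passed the filter through the mutant samples alone. *Xylt1* was not past 0.05 without the control sample 1 (edgeR adjusted p = 0.056) or 3 (0.068), nor *Dse* without the control sample 2 (0.066). Since *Dse* and *Xylt1* passed the filter only because their mutant counts were high, their p-values add no support to their counts. The related genes *Dsel* and *Xylt2*, chosen after their values were seen, had log2 fold changes of -0.12 and -0.03.

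**Figure D4:**
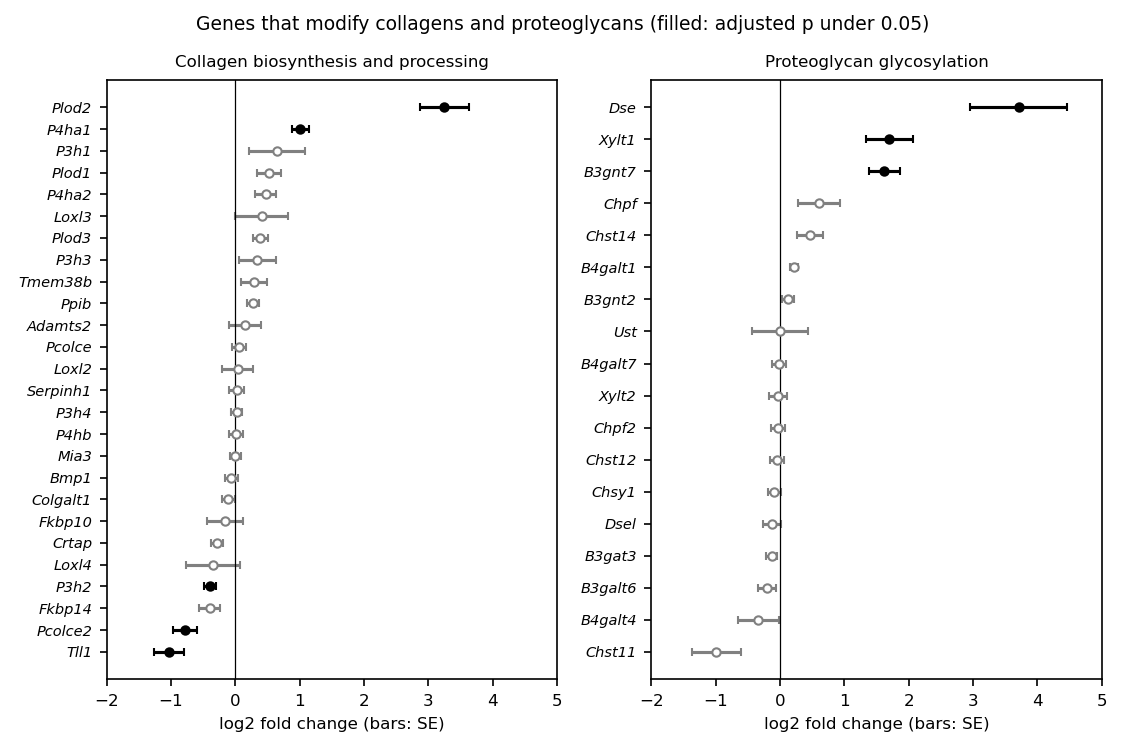
Log2 fold change, mutant minus control, of the 26 tested genes of collagen biosynthesis and processing and the 18 tested genes of proteoglycan glycosylation, with bars for the standard error and filled points for an adjusted p under 0.05 in edgeR. *Plod2* at 3.25 and *Dse* at 3.71 lie farthest to the right, and most open points lie close to 0.

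**Figure D5:**
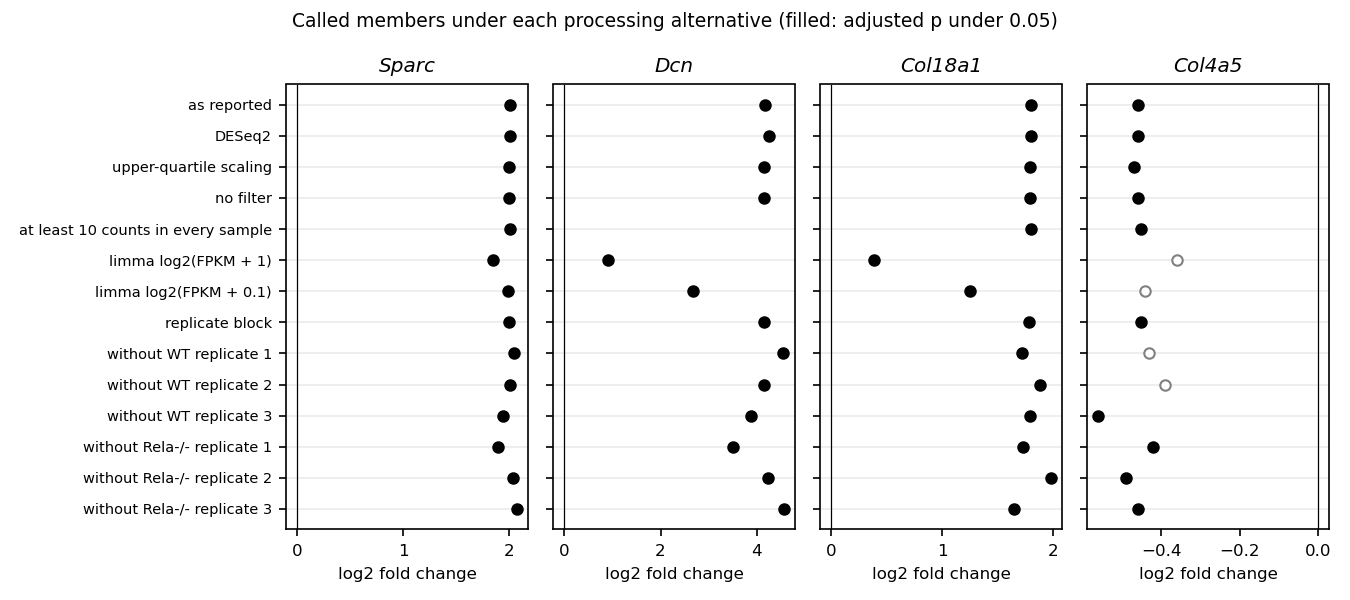
Log2 fold change of *Sparc*, *Dcn*, *Col18a1* and *Col4a5* as reported and in each processing alternative, with filled points for an adjusted p under 0.05; each panel has its own axis, and *Dcn* has no value where 10 counts in every sample were required. *Sparc*, *Dcn* and *Col18a1* are filled throughout, and *Col4a5* is open in 4 alternatives.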

How the data were processed

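RNA of the corneal epithelial layer was sequenced by the authors on the BGISEQ-500 platform (single-end, 50 bases) after rRNA removal. The labels name another library kit and the build mm9, whereas the gene coordinates in the file are those of GRCm38. The authors filtered reads with SOAPnuke, aligned them with Bowtie2 2.2.5 and deposited expected counts from RSEM 1.2.12, neither normalized nor pooled, and values beside them that were read as FPKM, since the header does not name their unit. Columns of the authors' means and of their own comparison (log2 ratios, p-values, q-values) were also deposited and were not used.

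Expected counts were rounded and tested with edgeR 4.0.16 in R 4.3.3 (TMM, filterByExpr at its minimum count of 10 and total of 15, genotype as the only factor), with Benjamini-Hochberg adjustment over all tested genes. Standard errors were derived from the fold change and its F statistic. Count ratios have exact 95% intervals for counting error only. Replicate numbers come from the labels, and the study calls its samples independent. Overlaps and strands come from GENCODE transcripts of GRCm38. Alternatives were DESeq2 1.42.0, upper-quartile scaling, other filters, limma 3.58.1 on log2(FPKM + 1) and log2(FPKM + 0.1), a replicate block and each sample left out. The statistics were tested on simulated data. Values in every sample are given for the non-collagen members, the 10 collagens with the highest FPKM, those with an adjusted p under 0.05 and the main stromal chains. Members and lists were chosen with earlier results of these data known.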

Additional observations from a re-analysis of the deposited data

How the results depend on the processing

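Members called higher at the study's thresholds numbered 1 (*Sparc*), 3 with DESeq2 (*Dcn* and *Col18a1* added), 2 with the replicate block (*Dcn* added) and 3 when the adjusted p was relaxed to 0.05 with the fold kept, and 1 to 2 without a sample. Members higher at an adjusted p under 0.05 numbered 3, 7 with DESeq2 and 7 without a filter, and 3 to 7 without a sample. The 7 came without the mutant sample 3, and 5 without the mutant sample 1, the control sample 1 or the control sample 3. These counts are not like for like. The fits held 16 members as reported, 47 with DESeq2 and without a filter, and 16 to 25 without a sample. Of all genes, 7.82% were higher as reported and 5.86% without a filter, and the share in the other fits was not computed. Members lower numbered 1 (*Col4a5*), 0 in limma with a pseudocount of 1, 0 with one of 0.1, and 0 to 2 without a sample: 0 without the control sample 1 or 2 and 2 without the mutant sample 2. Genes of collagen processing called lower numbered 3, and 0 to 3 without a sample. Genes of glycosylation called higher numbered 3, and 1 with at least 10 counts in every sample, where *Dse* and *Xylt1* were left out; those called lower ranged from 0 to 1 without a sample. Detected members numbered 38, but 16 with at least 10 counts in at least 3 samples and 21 with a mean FPKM of at least 0.1 in either genotype. Causes other than the filters were not tested. None of the log2 fold changes past the threshold turned its direction in an alternative. Deviations of same-numbered control and mutant samples from their group means correlated by 0.019, 0.048 and -0.046. Pairs with unlike numbers gave -0.077 to 0.064. Deviations from means of 3 samples balance out over the pairs, so these values cannot exclude that same-numbered samples were handled together. The replicate block changed no other call among the members. Outside the members, *P3h2* lost its call with the block (edgeR adjusted p = 0.055). Counts under about 10 per sample limit all statements on the stromal collagens and proteoglycans.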
